A study of Homo sapiens with 6 samples.

Results

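Proteins bound for the secretory pathway are met at the ribosome by the signal recognition particle (SRP), which binds a signal sequence as it emerges and docks at the SRP receptor on the endoplasmic reticulum (ER). The chain then enters the SEC61 channel, helped by the translocon-associated protein (TRAP) complex and TRAM proteins. Signal peptidase removes the signal sequence, and oligosaccharyltransferase (OST) moves a preassembled glycan from dolichol to asparagine. The 35 genes described here encode the proteins of these complexes and LRRC59, a ribosome-associated protein of the ER membrane. They were picked by symbol for their place in the complexes, from 67060 genes in the table. All 35 passed the filter on low counts that left 24500 genes for testing.

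The cells were SH-SY5Y, a human neuroblastoma line with features of catecholaminergic neurons, labelled as neuronal progenitor. All were infected with adenovirus and collected at 24 h, 3 libraries with Ad CMV GFP (GFP, replicates 1, 3 and 4) and 3 with Ad CMV 3xFlag-*Esrrg* (Flag-ERRg, replicates 2, 3 and 4). The latter carries the mouse coding sequence of the orphan nuclear receptor ERRγ with a Flag tag. The CMV promoter drives the gene of either virus in any infected cell, and no uninfected group was analysed here. Total RNA was depleted of ribosomal RNA, made into directional libraries and counted per gene. Nothing states that the libraries came from separate cultures, so p-values measure only the spread between these libraries, which may be technical.

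The libraries held 24969759 to 40859666 reads assigned to genes. Levels are CPM, gene counts relative to the TMM-scaled total of the library, given by library in the order of the replicates above, or as mean ± SD (n = 3 in each group). Human *ESRRG*, to which reads of the mouse insert may also align, had 83.6, 90.4 and 86.9 CPM with GFP and 569.6, 772 and 778 CPM with Flag-ERRg. Reads assigned to no gene made up 51.3% to 52.2% of all reads with GFP but 46.6%, 31.6% and 29.5% with Flag-ERRg, so Flag-ERRg replicates 3 and 4 stood apart from the other 4 libraries. Of 10 sympathoadrenal markers, 8 were tested and summed to 842 to 899.6 CPM with GFP and 594 to 789 CPM with Flag-ERRg, with *PHOX2A* called higher (0.81 on the log2 scale), *DBH* (-2.64), *GATA2* (-1.08) and *STMN2* (-0.68) called lower, and the other 4 not called. *TH* and *CHGA*, which define this lineage, were listed at 0 in every library, which does not show that they are absent. Of 8 markers of other cell types, 7 were tested and summed to 705 to 750.5 CPM with GFP and 482 to 551 CPM with Flag-ERRg, nearly all of it from *COL1A1*, *LUM* and *DCN*. Of these 3, *LUM* (-1.15) and *DCN* (-0.76) were called lower. *PTPRC*, *CD74*, *EPCAM* and *PECAM1* were at 2.48 CPM or lower in every library, among them *PECAM1*, which was called higher (0.87), and *CDH1* had at most 2 counts. The part of these markers in the results was not tested. In bulk RNA, fewer cells of a type and less RNA per cell cannot be told apart.

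With Flag-ERRg, 20 of the 35 genes were higher than with GFP and 0 were lower. A call needed a Benjamini-Hochberg adjusted p below 0.05 in edgeR's quasi-likelihood test over all tested genes and a change of at least 1.5-fold. Called higher were 17.3% of all tested genes, 25.9% of protein-coding genes and 31.6% of protein-coding genes with a mean of at least 20 CPM. Called lower were 16.8%, 12.4% and 7.8% of the same sets. For the 35 genes, the log2 fold change had a median of 0.69, against -0.10 for all tested genes, 0.12 for protein-coding genes and 0.25 for the abundant protein-coding genes. Of the 15 genes not called, 3 (*TRAM2*, *SSR1* and *SEC11A*) passed the adjusted p but not the fold, and 12 passed neither. A negative log2 fold change with an unadjusted p under 0.05 was found for 1 gene in edgeR (*SEC62*) and 0 in DESeq2. DESeq2 also called 20 of the 35 genes higher and 0 lower, with 4728 higher and 3219 lower over all tested genes. Of the 35 genes, 26 had groups without overlap, beside 58.1% of all tested genes, 70.3% of protein-coding genes and 79.0% of abundant ones. The summed level of the 35 genes was 3860.1 to 4142 CPM in the GFP libraries, 5465 CPM in Flag-ERRg replicate 2, and 7039 and 7138 CPM in replicates 3 and 4.

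**Figure D1:**
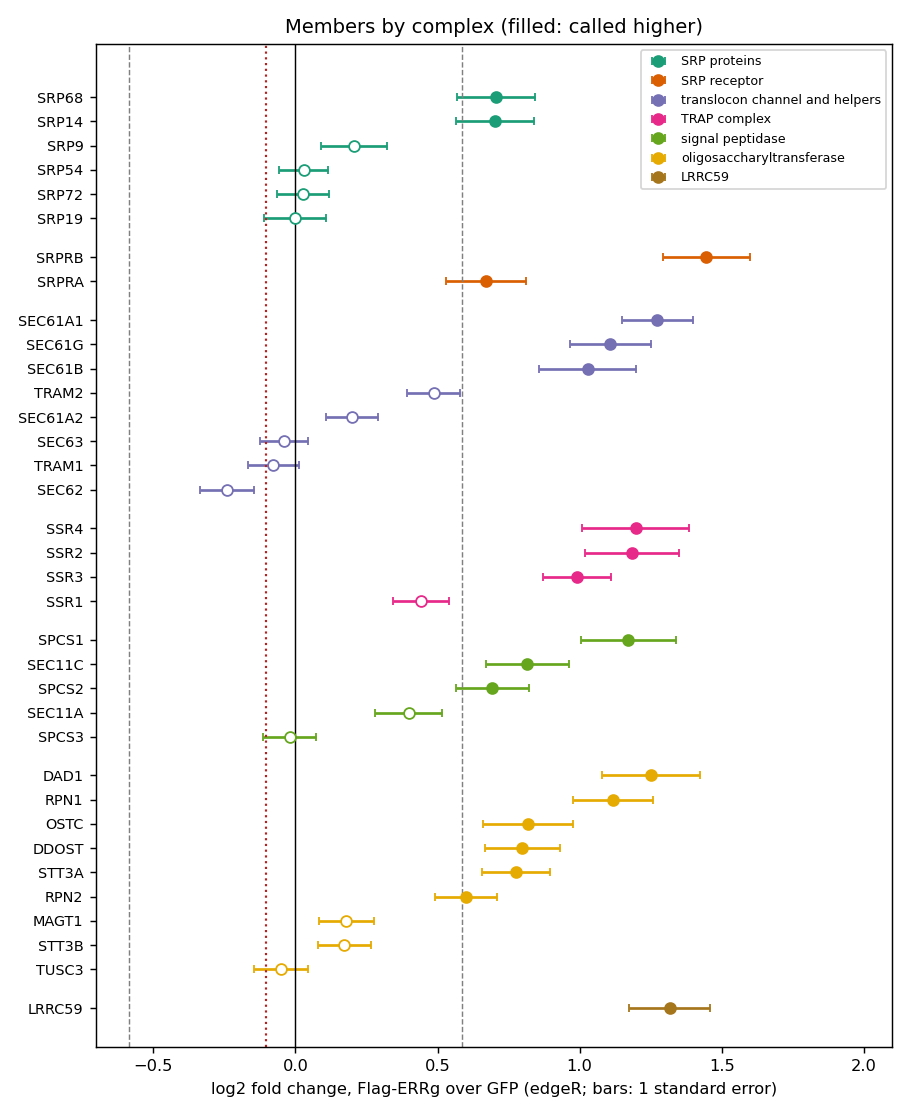
Log2 fold change of each of the 35 genes (horizontal axis, Flag-ERRg over GFP, bars of 1 standard error), grouped and coloured by complex, with filled points for genes called higher, dashed lines at 1.5-fold and a dotted line at the median of all tested genes (-0.10). The 20 filled points run from 0.60 for RPN2 to 1.45 for SRPRB, and every group other than the SRP receptor and LRRC59 has at least 1 open point.

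The called genes rose by 1.52-fold (*RPN2*) to 2.72-fold (*SRPRB*), and 10 of the 20 by at least 2-fold. In all 20, Flag-ERRg replicate 2 lay above every GFP library but below replicates 3 and 4. The 20 were called on these same libraries, so here and below a gap between their groups describes the call and adds no support. How often replicate 2 was the lowest Flag-ERRg library among all tested genes was not counted. The share of reads assigned to no gene in replicate 2 also lay between those of GFP and of replicates 3 and 4. With replicate 2 as the only Flag-ERRg library, 10 of the 35 genes were called higher and 0 lower, where 9.6% of all tested genes were higher and 7.63% lower. In that fit the spread comes from the GFP libraries alone, and the lone library is assumed to vary like them. The 10 genes were *SRPRB*, *SEC61A1*, *SEC61G*, *SSR2*, *SSR3*, *SSR4*, *SPCS1*, *RPN1*, *DAD1* and *LRRC59*. With the share of unassigned reads as a covariate, 6 were called higher and 0 lower, where 7.24% of all tested genes were higher and 5.4% lower. These were *SRPRB*, *SEC61A1*, *SEC61G*, *SSR3*, *RPN1* and *LRRC59*. The share differs between the groups, so its part and that of the virus cannot be told apart.

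Scaling also moved the counts. Scaled by library size alone, 11 of the 35 genes were higher and 0 lower, while all tested genes split into 2200 higher and 7566 lower, against 4234 and 4117 with TMM. The 9 genes no longer called were *SRP14*, *SRP68*, *SRPRA*, *SPCS2*, *SEC11C*, *RPN2*, *DDOST*, *STT3A* and *OSTC*, and all 9 were also lost with the covariate and with replicate 2 alone. Among protein-coding genes only, 15 of the 35 were higher (20.5% of the genes tested, with 18.0% lower). After correction of each library for GC content and length, 18 were higher (13.1%, with 15.1% lower). Without Flag-ERRg replicate 2, 23 were higher (22.9%, with 20.2% lower), the added genes being *TRAM2*, *SSR1* and *SEC11A*. The genes just outside the fold limit were *TRAM2* (1.40-fold), *SSR1* (1.36-fold) and *SEC11A* (1.32-fold), and those just inside were *RPN2* (1.52-fold) and *SRPRA* (1.59-fold).

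**Figure D2:**
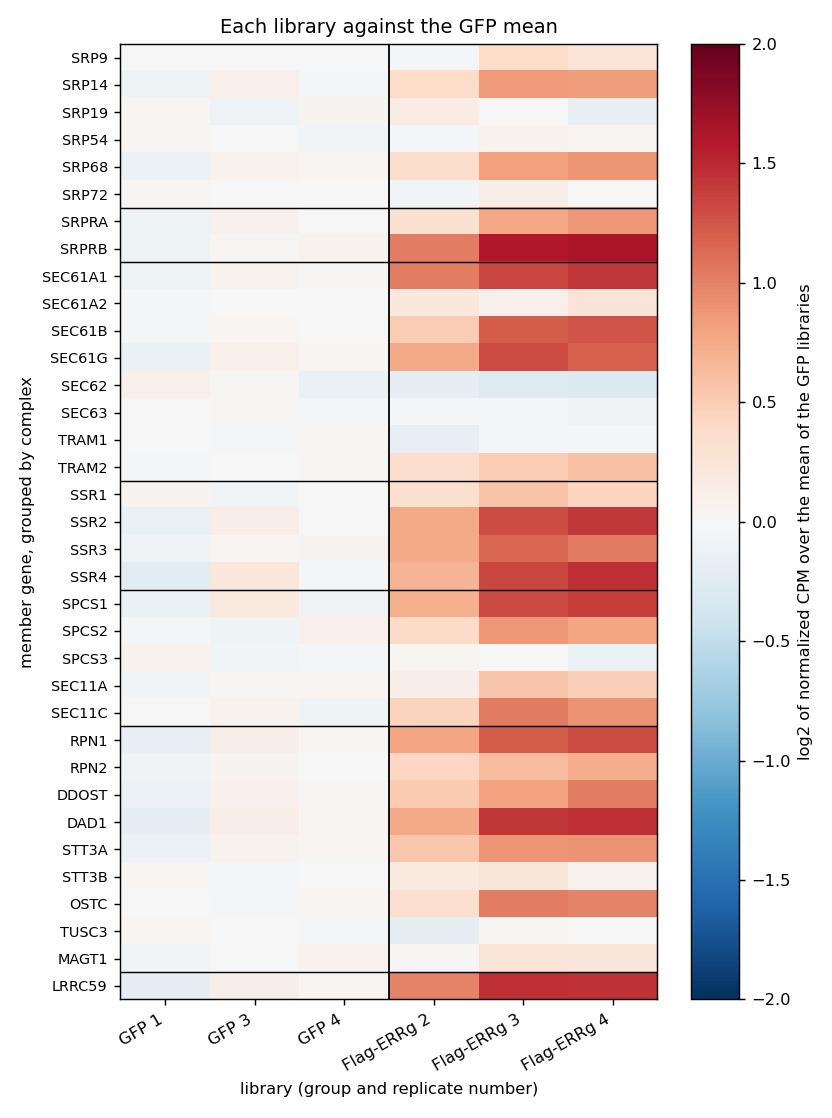
Normalized CPM of each gene (rows, grouped by complex) in each of the 6 libraries (columns), as log2 of the value over the mean of the 3 GFP libraries. Flag-ERRg replicate 2 is paler than replicates 3 and 4 for all 20 called genes, and SRP54, SRP72, SRP19, SEC63, TRAM1, SPCS3 and TUSC3 stay near white in every library.

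**Figure D3:**
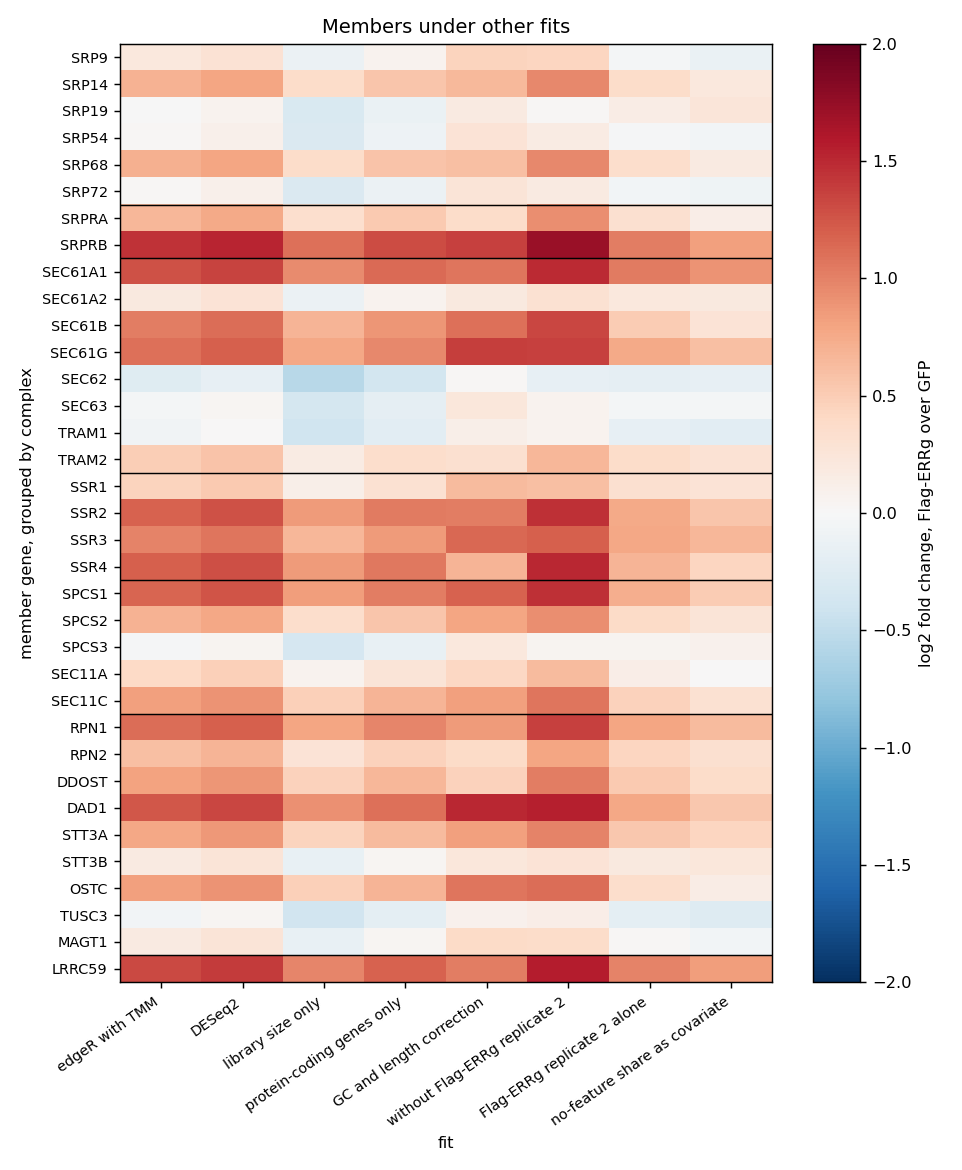
Log2 fold change of the 35 genes (rows, grouped by complex) under the reported fit and 7 others (columns). SRPRB, SEC61A1 and LRRC59 are red in every column, while the values of SRP54, SRP72, SEC63 and TUSC3 stay pale and change sign between columns.

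The SRP has an Alu domain (*SRP9* and *SRP14*), which slows elongation, and an S domain (*SRP19*, *SRP54*, *SRP68* and *SRP72*), which binds the signal sequence and the receptor. Of its 6 protein genes, 2 were higher and 4 passed neither threshold. Beside this count and those of the other complexes stand 17.3% of all tested genes and 31.6% of abundant protein-coding genes called higher. *SRP14* had 113, 130.4 and 119.6 CPM with GFP and 156, 219.6 and 216 CPM with Flag-ERRg (log2 fold change 0.70, standard error 0.14, adjusted p = 0.0018). *SRP68*, which forms a dimer with *SRP72*, had 98.6, 112 and 110.1 CPM with GFP and 136, 189 and 198 CPM with Flag-ERRg (log2 fold change 0.71, standard error 0.14, adjusted p = 0.0019). In both genes all 3 Flag-ERRg libraries lay above the GFP libraries, replicate 2 by the least. Neither was called when scaled by library size alone (0.37 and 0.37), among protein-coding genes only (0.56 and 0.56), with the covariate (0.21 and 0.18) or with replicate 2 alone (0.37 and 0.36). Their direct partners passed neither threshold in the reported fit. *SRP9* had 201 ± 1.74 CPM with GFP and 232 ± 33.2 CPM with Flag-ERRg (log2 fold change 0.21, standard error 0.12, adjusted p = 0.16). *SRP72* had 141 ± 1.76 CPM with GFP and 144 ± 9.73 CPM with Flag-ERRg (log2 fold change 0.027, standard error 0.092, adjusted p = 0.83). The groups overlapped for both. *SRP54*, the GTPase that holds the signal sequence, had 84.1, 82.7 and 79.3 CPM with GFP and 80.3, 86.3 and 84.5 CPM with Flag-ERRg (log2 fold change 0.029, standard error 0.087, adjusted p = 0.80). *SRP19*, which helps *SRP54* to load, had 23.3, 20.9 and 23.5 CPM with GFP and 25.0, 22.6 and 20.2 CPM with Flag-ERRg (log2 fold change -0.0011, standard error 0.11, adjusted p = 0.99). These groups overlapped as well. Pseudogene copies named after 10 of the 35 genes are annotated, and their summed counts came to at most 4.13% of the parent gene's, a value reached for *SRP72*.

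The RNA that holds the particle together was listed under *RN7SL1*, *RN7SL2* and *RN7SL3*, nearly identical genes whose reads the counting may split. *RN7SL1* had 4971, 6255 and 6827 CPM with GFP and 9966, 38467 and 34921 CPM with Flag-ERRg (log2 fold change 2.21, standard error 0.41, adjusted p = 0.0014). Replicate 2 lay above GFP, and replicates 3 and 4 lay far above replicate 2. With the share of unassigned reads as a covariate the log2 fold change of *RN7SL1* was 0.15. *RN7SL3* gave 2.88 (standard error 0.36), and *RN7SL2* was listed at 0 in every library.

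Both subunits of the SRP receptor were higher. *SRPRB*, the membrane anchor, had 24.4, 26.6 and 27.4 CPM with GFP and 52.9, 79.4 and 81.2 CPM with Flag-ERRg (log2 fold change 1.45, standard error 0.15, adjusted p = 7.3e-05). It had the largest fold change of the 35 genes in the reported fit, and was 2.03-fold of GFP in replicate 2. After correction for GC content and length *DAD1* (1.51) and *SEC61G* (1.39) exceeded it (1.37), and with the covariate *SEC61A1* (0.90 against 0.82). *SRPRA*, the peripheral GTPase that meets *SRP54*, had 125, 143 and 135 CPM with GFP and 166, 231 and 244 CPM with Flag-ERRg (log2 fold change 0.67, standard error 0.14, adjusted p = 0.0028). The groups overlapped for neither gene. *SRPRA* was not called without Flag-ERRg replicate 4 (log2 fold change 0.57) or after correction for GC content and length (0.37). It was also lost when scaled by library size alone (0.33), among protein-coding genes only (0.53), with the covariate (0.14) and with replicate 2 alone (0.32). Exons of other genes on the opposite strand cover 18.4% of the exon bases of *SRPRB* and 4.05% of those of *SRPRA*, and the strand setting of the counting is not given in the sources used here.

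At the channel, the 3 subunits of the main SEC61 complex were higher. *SEC61A1*, the pore-forming subunit, had 206, 234 and 227 CPM with GFP and 454, 562 and 598 CPM with Flag-ERRg (log2 fold change 1.27, standard error 0.13, adjusted p = 5.0e-05). *SEC61G*, a small tail-anchored subunit, had 63.9, 75.4 and 71.9 CPM with GFP and 119, 174 and 162 CPM with Flag-ERRg (log2 fold change 1.11, standard error 0.14, adjusted p = 1.8e-04). *SEC61B*, the other small subunit, had 46.3, 48.6 and 47.1 CPM with GFP and 67.1, 109.7 and 113 CPM with Flag-ERRg (log2 fold change 1.03, standard error 0.17, adjusted p = 7.3e-04). No library of one group reached into the other for these 3 genes. In replicate 2, *SEC61A1* was 2.05-fold, *SEC61G* 1.69-fold and *SEC61B* 1.42-fold of GFP. *SEC61B* was not called with the covariate (0.28). *SEC61A2*, a paralogue of the pore subunit at 14.1 CPM per kilobase of canonical transcript with GFP, against 62.4 for *SEC61A1*, had 34.7, 35.6 and 35.6 CPM with GFP and 40.8, 37.9 and 42.9 CPM with Flag-ERRg (log2 fold change 0.20, standard error 0.090, adjusted p = 0.091). Its groups did not overlap, but the log2 fold change was -0.12 when scaled by library size alone.

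The 4 other genes at the channel were not called. *SEC62* and *SEC63* help chains that engage the channel late or after synthesis. *SEC62* had 90.9, 85.7 and 77.2 CPM with GFP and 74.2, 70.4 and 70.2 CPM with Flag-ERRg (log2 fold change -0.24, standard error 0.095, adjusted p = 0.058), so that every Flag-ERRg library lay below the GFP libraries. *SEC63* had 99.2 ± 1.94 CPM with GFP and 96.4 ± 1.49 CPM with Flag-ERRg (log2 fold change -0.041, standard error 0.085, adjusted p = 0.71). *TRAM1*, a membrane protein beside the channel that aids the entry of some signal sequences, had 92.3, 89.8 and 95.3 CPM with GFP and 82.2, 89.7 and 91.0 CPM with Flag-ERRg (log2 fold change -0.077, standard error 0.089, adjusted p = 0.50). The groups overlapped for both. *TRAM2*, its paralogue, had 65.8, 68.4 and 68.9 CPM with GFP and 86.6, 96.6 and 101 CPM with Flag-ERRg (log2 fold change 0.49, standard error 0.094, adjusted p = 0.0018). Its groups did not overlap, and it stayed below 1.5-fold except without Flag-ERRg replicate 2. The values of *SEC63* and *TRAM1* changed sign under DESeq2, and those of *SEC62*, *SEC63* and *TRAM1* after correction for GC content and length.

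The TRAP complex sits beside the channel and helps chains whose signal sequences gate it weakly. Of its 4 genes, 3 were higher. *SSR2* (TRAPβ) had 283, 339 and 307 CPM with GFP and 523, 766 and 822 CPM with Flag-ERRg (log2 fold change 1.18, standard error 0.16, adjusted p = 2.8e-04). Per length it was the most abundant of the 35 genes, at 279.5 CPM per kilobase with GFP and 635 CPM per kilobase with Flag-ERRg. *SSR4* (TRAPδ) had 48.1, 65.0 and 54.1 CPM with GFP and 88.9, 141 and 154 CPM with Flag-ERRg (2.29-fold, adjusted p = 5.6e-04). *SSR3* (TRAPγ) had 182, 195 and 200.2 CPM with GFP and 326, 426 and 395 CPM with Flag-ERRg (log2 fold change 0.99, standard error 0.12, adjusted p = 1.3e-04). *SSR1* (TRAPα) had 155, 145 and 149 CPM with GFP and 187, 221 and 202 CPM with Flag-ERRg (log2 fold change 0.44, standard error 0.099, adjusted p = 0.0041). In all 4 genes the groups did not overlap. *SSR2* (0.55) and *SSR4* (0.42) were not called with the covariate. *SSR1* stayed below 1.5-fold except without Flag-ERRg replicate 2 and after correction for GC content and length. Exons on the opposite strand cover 20.8% of the exon bases of *SSR3*.

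Signal peptidase holds a catalytic subunit, *SEC11A* or *SEC11C*, and the accessory subunits *SPCS1*, *SPCS2* and *SPCS3*. Of these 5 genes, 3 were higher. *SPCS1* had 64.0, 80.1 and 66.6 CPM with GFP and 115, 175 and 184 CPM with Flag-ERRg (log2 fold change 1.17, standard error 0.17, adjusted p = 3.3e-04). Exons of *GLT8D1* and *NEK4* on the opposite strand cover 56.6% of its exon bases. *SPCS2* had 31.4, 29.9 and 34.1 CPM with GFP and 41.4, 57.8 and 54.8 CPM with Flag-ERRg (log2 fold change 0.69, standard error 0.13, adjusted p = 0.0015). *SPCS3* had 192, 177 and 181 CPM with GFP and 189, 185 and 169 CPM with Flag-ERRg (log2 fold change -0.021, standard error 0.094, adjusted p = 0.87). Thus *SPCS1* and *SPCS2* lay above GFP in each Flag-ERRg library, and the groups of *SPCS3* overlapped. *SEC11C*, the scarcer catalytic paralogue with 14.5 CPM per kilobase with GFP against 103 for *SEC11A*, had 11.5, 12.1 and 10.8 CPM with GFP and 15.7, 23.5 and 21.3 CPM with Flag-ERRg (log2 fold change 0.82, standard error 0.15, adjusted p = 0.0012). *SEC11A* had 107, 112 and 113 CPM with GFP and 121, 163 and 154 CPM with Flag-ERRg (log2 fold change 0.40, standard error 0.12, adjusted p = 0.018). Both lay above the GFP libraries in all 3 Flag-ERRg libraries, and of the pair only *SEC11C* passed 1.5-fold. *SPCS1* (0.50), *SPCS2* (0.255) and *SEC11C* (0.31) were not called with the covariate. Neither were *SPCS2* (0.36) and *SEC11C* (0.48) with library size alone, nor *SPCS2* among protein-coding genes only (0.55).

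Mammalian OST occurs in forms built around *STT3A* or *STT3B*. The STT3A form sits at the channel and glycosylates chains as they enter, with *OSTC* and *KRTCAP2* as its own subunits. The STT3B form, with *TUSC3* or *MAGT1*, acts on sites that were skipped. The subunits *RPN1*, *RPN2*, *DDOST*, *DAD1*, *OST4* and *TMEM258* are shared, and all 6 were higher, with log2 fold changes from 0.60 (*RPN2*) to 1.25 (*DAD1*). Besides *RPN2* and *DDOST*, given below, *DAD1* (0.54), *TMEM258* (0.35) and *OST4* (0.27) were not called with the covariate. *OST4* was not called with library size alone either (0.57), and had 0.48 with replicate 2 alone. *DAD1* had 51.1, 64.3 and 59.9 CPM with GFP and 99.3, 157 and 161 CPM with Flag-ERRg (log2 fold change 1.25, standard error 0.17, adjusted p = 2.7e-04). *RPN1* had 132, 159 and 149.9 CPM with GFP and 254, 341 and 362 CPM with Flag-ERRg (log2 fold change 1.12, standard error 0.14, adjusted p = 1.7e-04). *DDOST* had 189, 217 and 209 CPM with GFP and 295, 356 and 419 CPM with Flag-ERRg (log2 fold change 0.80, standard error 0.13, adjusted p = 7.8e-04). In these 3 genes the groups lay apart, with replicate 2 the lowest of the Flag-ERRg libraries. *RPN2* had 199.7, 217 and 211 CPM with GFP and 279.5, 325 and 347 CPM with Flag-ERRg (log2 fold change 0.60, standard error 0.11, adjusted p = 0.0012). *RPN2* was not called without GFP replicate 1 (0.57) or Flag-ERRg replicate 4 (0.54), or when at least 10 counts were asked of every library (0.57). It was also lost when scaled by library size alone (0.27), among protein-coding genes only (0.46), with the covariate (0.32) and with replicate 2 alone (0.42). *DDOST* was lost with library size alone (0.47), the covariate (0.37) and replicate 2 alone (0.53). After correction for GC content and length neither *RPN2* nor *DDOST* was called (0.38 and 0.47). *PINK1-AS*, annotated on the strand of *DDOST*, covers 15.7% of its exon bases.

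Of the STT3A form, 2 of 3 genes were higher. *STT3A* had 163, 186 and 180.3 CPM with GFP and 256, 323 and 327 CPM with Flag-ERRg (log2 fold change 0.78, standard error 0.12, adjusted p = 4.9e-04). *OSTC*, which links the enzyme to the channel, had 62.8, 61.9 and 64.8 CPM with GFP and 80.1, 128 and 126 CPM with Flag-ERRg (log2 fold change 0.82, standard error 0.16, adjusted p = 0.0018). In both genes the 3 Flag-ERRg libraries lay above all GFP libraries. Neither was called when scaled by library size alone (0.45 and 0.48), with the covariate (0.42 and 0.15) or with replicate 2 alone (0.54 and 0.35), so that 0 of the 3 genes were called in those fits. *KRTCAP2*, which is not among the 35 genes, had 6.79 ± 0.249 CPM with GFP and 6.70 ± 0.483 CPM with Flag-ERRg (log2 fold change -0.021, standard error 0.13, adjusted p = 0.90). Of the STT3B form, 0 of 3 genes were called by edgeR or DESeq2, with 0 at an unadjusted p under 0.05 in edgeR and 2 in DESeq2. *STT3B* had 166, 158 and 159.8 CPM with GFP and 184, 191 and 170.1 CPM with Flag-ERRg (log2 fold change 0.17, standard error 0.093, adjusted p = 0.15). *TUSC3* had 122, 117 and 116 CPM with GFP and 103, 120.4 and 119 CPM with Flag-ERRg (log2 fold change -0.050, standard error 0.096, adjusted p = 0.69). *MAGT1* had 64.7, 66.4 and 70.0 CPM with GFP and 68.0, 80.2 and 79.5 CPM with Flag-ERRg (log2 fold change 0.18, standard error 0.098, adjusted p = 0.15). The groups overlapped for *TUSC3* and *MAGT1* but not for *STT3B*, whose Flag-ERRg libraries all lay above GFP. In the scaling by library size alone, *STT3B* and *MAGT1* had log2 fold changes of -0.14 and -0.15.

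*LRRC59*, which binds ribosomes at the ER membrane, had 121, 148 and 141 CPM with GFP and 272, 378 and 373 CPM with Flag-ERRg (log2 fold change 1.32, standard error 0.14, adjusted p = 7.9e-05). The lowest Flag-ERRg library thus lay well above the highest GFP library, and the gene was called in every fit that was run. The study picked this gene partly on these libraries, so its rise is not independent evidence. In mouse midbrain, the study measured less *Lrrc59* by PCR after *Esrrg* knockdown. It did not name *Lrrc59* among the genes raised there by *Esrrg* overexpression. Exons on the opposite strand, among them those of *EME1*, cover 19.6% of the exon bases of human *LRRC59*.

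Because a ratio of counts within a library does not depend on how libraries are scaled, 5 paralogue pairs were also compared as log2 ratios. The ratio of *SEC61A1* to *SEC61A2* was 2.57, 2.72 and 2.67 with GFP and 3.47, 3.89 and 3.80 with Flag-ERRg, a difference of 1.07 between group means. For *STT3A* to *STT3B* it was -0.034, 0.24 and 0.17 with GFP and 0.47, 0.76 and 0.94 with Flag-ERRg, a difference of 0.60. Both ratios were shifted towards the first gene of the pair in every Flag-ERRg library. For *TRAM1* to *TRAM2* the ratio was 0.49, 0.39 and 0.47 with GFP and -0.075, -0.11 and -0.16 with Flag-ERRg, a difference of -0.56. The ratios of *SEC11A* to *SEC11C* and of *TUSC3* to *MAGT1* differed by -0.41 and -0.23. As differences of fitted log2 fold changes, *STT3A* over *STT3B* was 0.20 with the covariate and 0.35 with replicate 2 alone, *SEC61A1* over *SEC61A2* was 0.71 with the covariate, and *TRAM1* over *TRAM2* was -0.21 after correction for GC content and length. The groups overlapped for 0 of the 5 pairs. Levels of single genes were free of overlap in 58.1% of all tested and 79.0% of abundant protein-coding genes. Those are not shares of ratios, and no share for the ratios of other gene pairs was computed. Each pair gave p = 0.1 in a two-sided exact permutation test (adjusted p = 0.1 over the 5 pairs). That is the smallest p that 3 libraries against 3 can give.

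**Figure D4:**
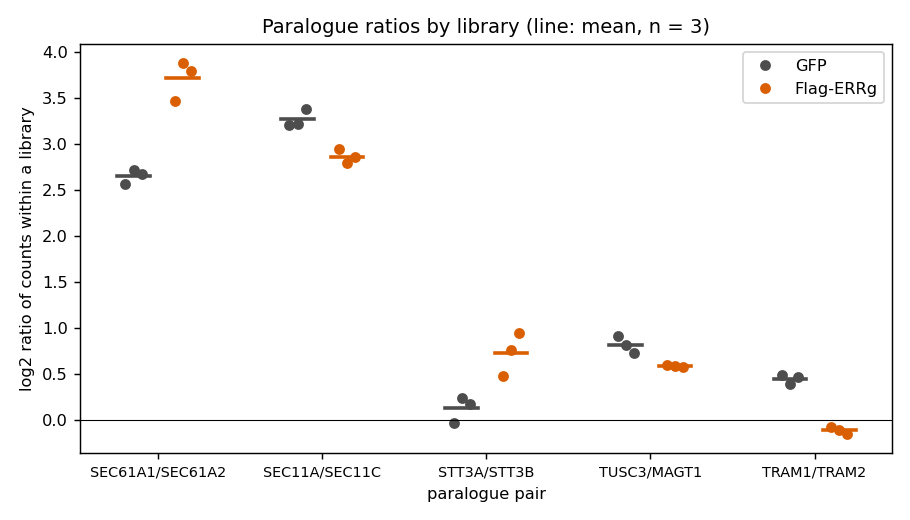
Log2 ratio of counts of 5 paralogue pairs in each library (points) with the mean of each group (lines, n = 3). In every pair the 3 Flag-ERRg points lie apart from the 3 GFP points, upwards for SEC61A1/SEC61A2 and STT3A/STT3B and downwards for the other 3 pairs.

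Genes that work beside these complexes were counted in 9 lists with 72 genes. Of these, 68 were tested, 39 were higher and 3 lower, with a median log2 fold change of 0.72. The counts of each list stand beside 17.3% of all tested genes and 31.6% of abundant protein-coding genes called higher, and 16.8% and 7.8% called lower. In the assembly of the dolichol-linked glycan that OST uses, 13 of 24 genes were higher and 3 lower. *MPDU1*, which makes dolichol-bound sugars available to lumenal enzymes, had 28.1, 34.1 and 33.0 CPM with GFP and 68.7, 97.5 and 109.5 CPM with Flag-ERRg (log2 fold change 1.53, standard error 0.16, adjusted p = 6.9e-05). *ALG10B*, which adds the last glucose, had 18.8 ± 1.75 CPM with GFP and 9.85 ± 1.34 CPM with Flag-ERRg (log2 fold change -0.93, standard error 0.13, adjusted p = 2.8e-04). The other lower genes were its close paralogue *ALG10* (log2 fold change -0.77), with which it may share reads, and *ALG13* (-0.66).

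Of the genes for glycan trimming and lectin chaperones, 4 of 8 tested were higher, with log2 fold changes from 0.79 for *MAN1B1*, a mannosidase, to 1.32 for *CALR*. *MAN1B1* was not called with library size alone (0.46), after correction for GC content and length (0.40) or with the covariate (0.45). With replicate 2 alone it had 0.57. *CALR*, the chaperone calreticulin, had 523, 667 and 604 CPM with GFP and 1214, 1568 and 1709 CPM with Flag-ERRg. *CANX*, its membrane-bound relative, had at most 2 counts in any library, and *EMC9* and *WDR83OS* were listed at 0, which does not show that they are absent. In the ER membrane protein complex, an insertase for multipass and tail-anchored proteins, 6 of 9 tested genes were higher, with log2 fold changes from 0.72 (*EMC10*) to 1.93 (*EMC6*). Not called were *EMC1* (0.54), *MMGT1* (-0.13) and *EMC2* (-0.58, adjusted p = 0.025), the last just short of the fold cutoff. *EMC6* had only 2 to 6 counts in the GFP libraries, was not called with the covariate (1.68) and had 1.76 with replicate 2 alone. *EMC10* was not called with library size alone (0.39), among protein-coding genes only (0.58) or with the covariate (0.38). It had 0.32 after correction for GC content and length, where it was not called, and 0.51 with replicate 2 alone. Of the factors for multipass proteins at the channel, 4 of 8 were higher, from 0.77 (*NOMO2*) to 1.53 (*TMEM147*). *NOMO2* was not called with library size alone (0.44) or after correction for GC content and length (0.53). The near-identical copies *NOMO1* and *NOMO3*, with which *NOMO2* may share reads, had 0.35 and 0.048.

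In the insertion of tail-anchored proteins, 4 of 7 genes were higher, with log2 fold changes from 1.05 (*SGTA*) to 1.66 (*BAG6*). *BAG6* had only 11 to 18 counts in the GFP libraries. With the covariate, neither *SGTA* (0.55) nor *BAG6* (1.24) was called. *GET3*, the targeting ATPase, had 33.8, 43.7 and 38.7 CPM with GFP and 75.7, 134 and 148 CPM with Flag-ERRg (log2 fold change 1.62, standard error 0.21, adjusted p = 2.1e-04). The contacts of ribosome and nascent chain held 2 higher genes of 5, *CKAP4* (1.23) and *RRBP1* (0.61). After correction for GC content and length *RRBP1* had 0.18 and was not called. Nor was it called with library size alone (0.29), among protein-coding genes only (0.47) or with the covariate (0.42). It was also lost without Flag-ERRg replicate 4 (0.57) and with at least 10 counts in every library (0.58), and had 0.49 with replicate 2 alone. *NACA* and *BTF3*, the complex that keeps the SRP from ribosomes without a signal sequence, had 0.46 and 0.39 and stayed below 1.5-fold. *KTN1*, the remaining gene of that list, had -0.39 (adjusted p = 0.021) and was not called. *HM13*, the signal peptide peptidase, and *TMEM208* were higher (1.13 and 1.64), as were the small OST subunits *TMEM258* (1.12) and *OST4* (0.91).

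**Figure D5:**
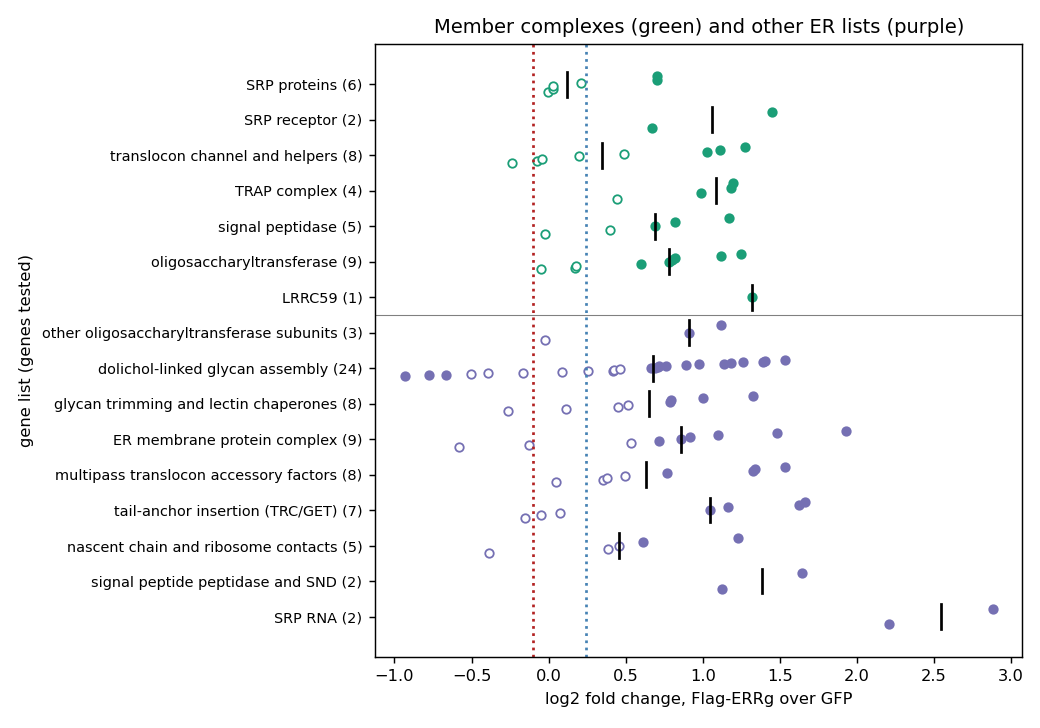
Log2 fold change (horizontal axis, Flag-ERRg over GFP) of each tested gene in the complexes of the 35 genes (green) and in the other ER lists (purple), with filled points for called genes and a bar at each list's median. The dotted lines mark the median of all tested genes (-0.10, red) and of abundant protein-coding genes (0.25, blue), and the medians of the lists run from 0.12 for the SRP proteins to 2.54 for the SRP RNA.

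Promoter windows of 300 bases around annotated starts, from RefSeq on GRCh38.p14, were found for 29 of the 35 genes, 37 windows in all. They were searched on both strands for 5 motifs. AAGGTCA, the core of the ERR site, and TCAAGGTCA, which contains it, were in 0 of the 37 windows, where 3.92% and 0.353% of all 35116 windows hold them. The ER stress response elements ERSE and ERSE-II were in 0 of the 37 windows and in 0.0769% and 0.0541% of all windows. TGACGTG, the core of the unfolded protein response element, does not contain or extend the other motifs. It was in 6 of the 37 windows (16.2%), each of another gene, and in 1.97% of all windows. Of these 6 genes, *LRRC59*, *SSR4*, *SSR3* and *SEC61A1* were called higher, and *SEC62* and *SRP19* were not. Of all 35 genes, 20 were called higher, beside 17.3% of all tested genes and 31.6% of abundant protein-coding genes. The part of this motif in the changes was not tested. A match is a description of letters and not a site, and no match says only that these letters are not in the window. In *SSR3* and *SEC61A1* the match lies at an alternative start, and that of *SSR4* also lies in the window of *IDH3G*. The stretches that hold the match are shown 5′ to 3′ on the strand of the gene, with TGACGTG or its reverse complement in capitals, since they are what these called and uncalled genes share.
LRRC59, chr17:50397524-50397623, minus strand: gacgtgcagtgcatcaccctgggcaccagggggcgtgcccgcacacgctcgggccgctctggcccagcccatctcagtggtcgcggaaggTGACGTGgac
SSR4, chrX:153794528-153794557, plus strand: tcagggaggggcCACGTCAgtgctgccaga
SSR3, chr3:156554148-156554177, minus strand: tctgataacagcCACGTCAgcaaggaaact
SEC61A1, chr3:128052425-128052454, plus strand: cgggctagcacTGACGTGtctctcggcgga
SEC62, chr3:169966737-169966806, plus strand: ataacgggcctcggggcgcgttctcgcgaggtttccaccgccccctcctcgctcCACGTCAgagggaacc
SRP19, chr5:112861164-112861193, plus strand: aagtcttcatgcCACGTCAgagactagaga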

How the data were processed

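Counts were the values deposited by the authors, raw counts of reads per Ensembl gene, with 5 summary entries that were kept out of library sizes and tests. The submitters' processing notes name Trim Galore 0.6.7, STAR 2.7.9a, HTSeq 0.11.3, DESeq2 and GRCh38. The annotation release and the strand setting are not given in the sources used here, and the library kit was directional. Identifiers were matched without version to GENCODE release 44 on GRCh38 (60419 of 67060), and 44 copies on the Y pseudoautosomal regions were left out. Counts were filtered with filterByExpr, scaled by TMM and compared with edgeR 4.0.16 in R 4.3.3 (quasi-likelihood test, Benjamini-Hochberg over 24500 genes). A standard error is the size of the log2 fold change divided by the root of its F statistic. Levels between genes are CPM per kilobase of the Ensembl canonical transcript. Alternatives used DESeq2 1.42.0 and mgcv 1.9.3, and tables and plots used pandas 2.3.3 and matplotlib 3.10.9. On simulated data with 200 genes changed 2-fold among 23793 genes, edgeR recovered 174 with 9 false calls. The changed genes were drawn from the more abundant ones, as many up as down, and all simulated libraries otherwise had the same composition. In the data 4234 genes were called higher and 4117 lower, and the share of unassigned reads differed between the groups. The simulated figures therefore do not carry over to these libraries.

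Named genes were the 35 members, the called gene with the highest and the lowest change in each companion list, the SRP RNA genes, *ESRRG*, and neighbours by position. *ALG10*, *ALG13*, *GET3*, *KRTCAP2*, *NACA*, *BTF3*, *NOMO1*, *NOMO3*, *CANX*, *EMC9* and *WDR83OS* were named after their values were seen. The same holds for *EMC1*, *EMC2*, *MMGT1* and *KTN1*. The members and lists were chosen with earlier results of these data known. Total counts on genes ran from 24969759 to 40859666 per library, and the lowest count of a member in a library was 324.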

Additional observations from a re-analysis of the deposited data

Results flagged for a closer look

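Among the entries outside the gene counts, ambiguous reads, which overlap several genes, made up at least 5.69% of all reads in the Flag-ERRg libraries and at most 4.87% in the GFP libraries. Reads aligned to several places made up at least 9.33% with Flag-ERRg and at most 7.41% with GFP. Neither kind enters the gene counts, and both were above every control library. Of the 35 genes, 26 have under 5% of their exon bases under exons of other genes on either strand, and the part of the uncounted reads in the other 9 was not tested.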

How the results depend on the processing

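Replicate numbers 3 and 4 are shared between the groups, but deviations from the group means of same-numbered libraries had correlations of 0.075 and -0.00010 across genes, and nothing says that the numbers mark a shared culture. With the replicate number as a block, 4742 genes were higher and 5693 lower, 20 of the 35 genes were higher and 0 lower, and their median was 0.80. It changed no call among the 35. Within replicates 3 and 4 the paralogue differences were 1.15, -0.48, 0.64, -0.19 and -0.56 in the order *SEC61A1*, *SEC11A*, *STT3A*, *TUSC3*, *TRAM1*. The alternatives were set with earlier results known, and Flag-ERRg replicate 2 alone and the paralogue differences from fitted values were added after these data were seen. From fitted values they were, with the covariate, *SEC61A1* 0.71, *SEC11A* -0.30, *STT3A* 0.20, *TRAM1* -0.50, and with replicate 2 alone, *SEC61A1* 0.82, *STT3A* 0.35, and with the GC and length correction, *TRAM1* -0.21. The cause of the changes below was not tested, except where a stricter cutoff or fewer genes or libraries is the alternative itself.

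Genes higher and lower over all tested genes (4234 and 4117) were 2200 and 7566 when scaled by library size alone, where their median log2 fold change went from -0.10 to -0.42, 2814 and 2468 with protein-coding genes only, 1773 and 1323 with the covariate, 2555 and 2031 with replicate 2 alone, and 1952 and 1982 at 2-fold. Of the 35 genes, 20 higher became 11 with library size only, 6 with the covariate, 10 with replicate 2 alone, 10 at 2-fold, 15 with protein-coding genes only, 18 with the GC and length correction and 18 to 23 with 1 library left out. Their median (0.69) became 0.36 with library size only, 0.26 with the covariate and 0.36 with replicate 2 alone, beside -0.42, 0.016 and -0.026 for all tested genes. The companion genes (39 higher, 3 lower) were 25 and 7 with library size only, 19 higher with the covariate, 5 lower with protein-coding genes only, 7 lower with no fold cutoff, and 24 higher and 0 lower at 2-fold. Of 595 values of the 35 genes under the alternatives, 486 kept their direction and call, 48 lost the call, 5 gained it and 56 changed sign, 0 of them in called genes.

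Values whose sign changed belonged to genes that were not called in the reported fit. They were, as log2 fold changes, with library size alone, *SRP9* -0.12, *SRP54* -0.29, *SRP72* -0.30, *SEC61A2* -0.12, *STT3B* -0.14, *MAGT1* -0.15, *TRAM2-AS1* -0.070 and *GLT8D1* -0.16. With the share of unassigned reads as a covariate, *SRP9* -0.14, *SRP19* 0.24, *SRP54* -0.052, *SRP72* -0.088, *SPCS3* 0.090, *MAGT1* -0.051, *TRAM2-AS1* -0.27 and *XRRA1* 0.12. With Flag-ERRg replicate 2 alone, *SRP9* -0.036, *SRP19* 0.15, *SRP54* -0.025, *SRP72* -0.057, *SPCS3* 0.048, *TRAM2-AS1* -0.11 and *XRRA1* 0.012. With DESeq2, *SRP19* 0.075, *SEC63* 0.037, *TRAM1* 0.0031, *SPCS3* 0.056 and *TUSC3* 0.031. With RLE size factors, *SRP19* 0.075, *SEC63* 0.037, *TRAM1* 0.0030, *SPCS3* 0.056 and *TUSC3* 0.031. With no low count filter, *SRP19* 0.0052. With the GC and length correction, *SRP19* 0.18, *SEC62* 0.024, *SEC63* 0.22, *TRAM1* 0.12, *SPCS3* 0.21 and *TUSC3* 0.091. With the replicate block with GC and length correction, *SRP19* 0.13, *SEC62* 0.089, *SEC63* 0.26, *TRAM1* 0.18, *SPCS3* 0.23 and *TUSC3* 0.18. With protein-coding genes only, *SRP54* -0.11 and *SRP72* -0.11. With at least 10 counts in every library, *SRP72* -0.0019. With the replicate block, *TUSC3* 0.040. With 1 library left out the values ran for *SRP19* from -0.051 to 0.083, *SRP72* from -0.020 to 0.18, *SEC63* from -0.054 to 0.067, *TRAM1* from -0.096 to 0.076, *SPCS3* from -0.044 to 0.056, *TUSC3* from -0.083 to 0.13.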

Other observations

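Several of the 35 genes share a start region with a gene on the opposite strand. Of 6 protein-coding genes in the table whose start lies within 1000 bases of theirs, 3 were higher with Flag-ERRg, where 25.9% of tested protein-coding genes were. *IDH3G*, a subunit of the mitochondrial isocitrate dehydrogenase, starts 293 bases from *SSR4* and had 18.7, 21.3 and 23.4 CPM with GFP and 42.9, 63.2 and 72.9 CPM with Flag-ERRg (2.82-fold, adjusted p = 1.2e-04). *SSR4* was 2.29-fold, and the groups overlapped for neither gene. The study picked *IDH3G* too partly on these libraries, so its rise is not independent evidence. *FOXRED1*, an assembly factor of respiratory complex I, starts 259 bases from *SRPRA* and had 19.3, 21.6 and 21.8 CPM with GFP and 28.3, 39.2 and 42.0 CPM with Flag-ERRg (log2 fold change 0.81, standard error 0.14, adjusted p = 0.0011), beside 0.67 for *SRPRA*. *ALG2*, a mannosyltransferase of glycan assembly, starts 340 bases from *SEC61B* and had 19.3, 21.4 and 20.1 CPM with GFP and 27.2, 33.9 and 36.8 CPM with Flag-ERRg (log2 fold change 0.69, standard error 0.12, adjusted p = 0.0011), beside 1.03 for *SEC61B*. *FOXRED1* was not called with library size alone (0.47), after correction for GC content and length (0.43) or with the covariate (0.26). *ALG2* was not called with library size alone (0.36), among protein-coding genes only (0.55) or with the covariate (0.29). With Flag-ERRg replicate 2 alone the log2 fold change was 0.44 for *FOXRED1* and 0.43 for *ALG2*. The other protein-coding neighbours were not called in the reported fit. The log2 fold change was 0.17 (standard error 0.088) for *GLT8D1* beside *SPCS1*, -0.21 (standard error 0.12) for *XRRA1* beside *SPCS2*, and 0.50 (standard error 0.18) for *MROH8* beside *RPN2*, which had 0.60 (standard error 0.11).

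Among the 6 other transcripts tested at such starts, 2 were higher and 1 lower, beside 17.3% and 16.8% of all tested genes. *SEC61G-DT* rose with *SEC61G* (log2 fold changes 1.51 and 1.11), at most 2.11 CPM. *LACTB2-AS1* fell beside *TRAM1* (2.31, 1.91 and 2.63 CPM with GFP and 1.01, 0.832 and 0.499 CPM with Flag-ERRg), and the transcript ENSG00000272476 was higher beside *SEC63* (0.92). *SRP14-DT* had -0.36 beside 0.70 for *SRP14*. With the covariate, *SEC61G-DT* (0.87) and *LACTB2-AS1* (-0.92) were not called.

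The 20 called and the 15 other genes also differed in properties that the groups of samples do not set. The called genes had a median GC content of 48.4% and a median canonical transcript of 2256 bases, and the others 40.6% and 3855 bases. With GFP, the median level was 60.9 CPM per kilobase in the called genes and 30.3 CPM per kilobase in the others. After correction of each library for GC content and length, 18 of the 35 genes were called higher (13.1% of all tested genes), 17 of them among the 20. The part of these properties in the differences that remain was not tested.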
